A study of Mus musculus with 4 samples.

Results

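Interferon-induced genes and the Schlafen family were examined in aortic libraries that are described as smooth muscle cells. The knockout mice lack the transcriptional co-activators YAP and TAZ in smooth muscle. The members were the rows of the deposited table whose gene symbol fits a fixed list of names: Ifi, Ifit, Ifitm, Irf, Oas, Gbp, Mx and Slfn genes, Stat2 and a set of single genes such as Isg15, Rsad2, Usp18 and Zbp1. The rule reads symbols and no measured value, but it was written with earlier results of these data known. It found 79 of the 39179 rows of the table, with 78 different symbols because Gbp11 has 2 rows. Of the 79 rows, 65 had a mean of at least 10 normalized read counts over the libraries and were tested, 9 were below that mean and 5 were listed at 0 in all libraries.

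The series holds 4 RNA-seq libraries, titled as aorta and described as primary aortic smooth muscle cells. Markers of macrophages, endothelial cells, fibroblasts and adipocytes were above 0 in every library. The values therefore cannot be credited to smooth muscle cells alone. The 2 knockout libraries came from mice labelled Sm-Yap/Taz-KO, in which Yap1 and Wwtr1 (the gene of TAZ) are deleted in smooth muscle, and the 2 wild-type libraries came from mice labelled WT. Both groups are labelled with tamoxifen injection and 18 days. The sources used here do not name the driver of the recombinase, the age or strain of the mice, or whether a library held 1 animal or a pool. The labels do not tie the 2 libraries of a group to separate mice, so the p-values cover only how far these libraries differ, and that may be technical variation.

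Interferons are secreted proteins that signal through cell surface receptors and Janus kinases to transcription factors of the STAT family. One of the complexes they form, which includes STAT2 and IRF9, binds the interferon-stimulated response element (ISRE) in the promoters of many genes. Type II interferon acts mainly through another site, the gamma-activated sequence (GAS). The induced proteins sense foreign nucleic acids, degrade viral RNA, block viral entry, attack the vacuoles of intracellular microbes or feed back on the pathway. The Schlafens, named for the German word for sleep, are a rodent-expanded family whose founding members restrain the growth of lymphocytes. In the vessel wall, smooth muscle cells, endothelial cells, fibroblasts and macrophages can all respond to interferon.

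The sequences that link many members are their ISRE matches, and 10 of them are printed here. Of these, 8 belong to members that rose, Isg15 is shown for its run of overlapping matches and Oas1g for its likeness to Oas1a. Each is a stretch of 50 bases from the promoter table of RefSeq (build GRCm38.p6), 5′ to 3′ on the strand of the gene. Capitals mark matches to the ISRE core, GAAANNGAAA, read on either strand, and overlapping matches run together.
Isg15, chr4:156200862-156200911, minus strand: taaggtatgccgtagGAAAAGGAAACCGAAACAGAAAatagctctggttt
Oas1a, chr5:120907511-120907560, minus strand: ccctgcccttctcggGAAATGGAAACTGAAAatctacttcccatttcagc
Oas1g, chr5:120887597-120887646, minus strand: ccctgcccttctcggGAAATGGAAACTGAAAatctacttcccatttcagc
Ifit1, chr19:34640770-34640819, plus strand: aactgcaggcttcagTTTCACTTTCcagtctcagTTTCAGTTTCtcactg
Rsad2, chr12:26456538-26456587, minus strand: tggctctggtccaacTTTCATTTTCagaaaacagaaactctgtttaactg
Gbp3, chr3:142559984-142560033, plus strand: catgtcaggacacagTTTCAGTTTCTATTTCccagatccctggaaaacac
Ifi203, chr1:173942493-173942542, minus strand: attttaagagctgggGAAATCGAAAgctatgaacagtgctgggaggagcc
Ifi205, chr1:174031855-174031904, minus strand: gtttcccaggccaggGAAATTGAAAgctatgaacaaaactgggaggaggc
Slfn8, chr11:83020824-83020873, minus strand: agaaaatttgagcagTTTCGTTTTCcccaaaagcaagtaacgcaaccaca
Slfn9, chr11:82991841-82991890, minus strand: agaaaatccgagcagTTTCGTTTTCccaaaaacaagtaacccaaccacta

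Isg15 holds a run of 3 overlapping matches, and Oas1a and Gbp3 hold runs of 2. The stretches of Oas1a and its neighbour Oas1g are the same in 50 of 50 bases. The share of promoters with these letters, in members and in all genes, is given after the expression values.

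The targeted genes were read first. Yap1 had 947 and 962 normalized counts in knockout replicates 1 and 2 against 1966 and 1877 in wild-type replicates 1 and 2, the order used for all values here, and Wwtr1 had 2848 and 2466 against 3423 and 4016. In each gene the groups did not overlap, with the knockout the lower, and with an adjusted p of 0.00802 for Yap1 and 0.0553 for Wwtr1. Reads from undeleted exons are part of these counts. In the same libraries the 10 smooth muscle markers summed to 191167 and 145978 against 476970 and 452152, and 8 of them fell at an adjusted p under 0.05 in limma. The part of the smooth muscle share in the values of Yap1 and Wwtr1 was not tested, so these values alone do not check the deletion. The normalized totals were 13279332 to 14519178 per library, which correspond to an estimated 11800000 to 16800000 reads on genes. All 10 smooth muscle markers were above 0 in every library, and so were all markers listed for macrophages, endothelial cells, fibroblasts and adipocytes.

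Many interferon-induced genes, and the Schlafens among them, were higher in the knockout, and none passed the test as lower. At an adjusted p under 0.05, 30 of the 65 tested members rose and 0 fell, whereas among all 15058 tested genes 9.58% rose and 6.7% fell. Of the 65, 40 had an unadjusted p under 0.05, and each of these was higher. The log2 fold change is limma's difference of group means on the log2 scale and is also called the log2 difference here. The median log2 fold change of the tested members was 1.27, against -0.02 over all tested genes, and 63 of 65 members had a positive value. Both knockout values lay above both wild-type values in 48 of 65 members, beside 30.7% of all tested genes, and below both in 1 member, beside 32.1%. Members with a wild-type mean under 10 passed the filter only through their knockout values, so these counts are partly set by the filter. Such members among the 30 that rose were Slfn4, Mx1, Oas1a and Oasl1. Without the filter, 71 of 74 members had a positive log2 fold change, with a median of 1.21 against -0.045 over all genes. Among the 30 that rose, the ratio of group means ran from 1.54 in Stat2 to 104 in Slfn4, with a median of 4.16, and 26 rose by at least 1 on the log2 scale. In the same libraries 9 of 10 macrophage markers rose and the other, Mertk, fell. The normalized counts of the 9 that rose summed to 12123 and 15425 against 1143 and 3208. All 10 together summed to 13917 and 17032 against 5032 and 6482. In bulk samples more cells of a type and more RNA per cell cannot be told apart, and the part of these cells in the members' values was not tested.

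The calls depended on the fit. In limma no member passed without the filter on low values (37 higher and 1 lower at an unadjusted p under 0.05) or without the intensity trend (39 and 0). The same held when a library was left out, for the knockout replicates (34 and 0 without the first, 24 and 0 without the second) and for wild-type replicate 1 (34 and 0), while 8 members were called higher without wild-type replicate 2. In each of these refits all 30 members kept a positive log2 fold change, but that sign was fixed beforehand. Neither the filter nor the trend enters a gene's fold change. In each of the 30 both knockout values lay above both wild-type values, so leaving out 1 library could not reverse it. None of the 30 values moved by more than 1.5 times when 1 library was left out. Members picked for a small p have little spread within groups, so this is no independent check.

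**Figure D1:**
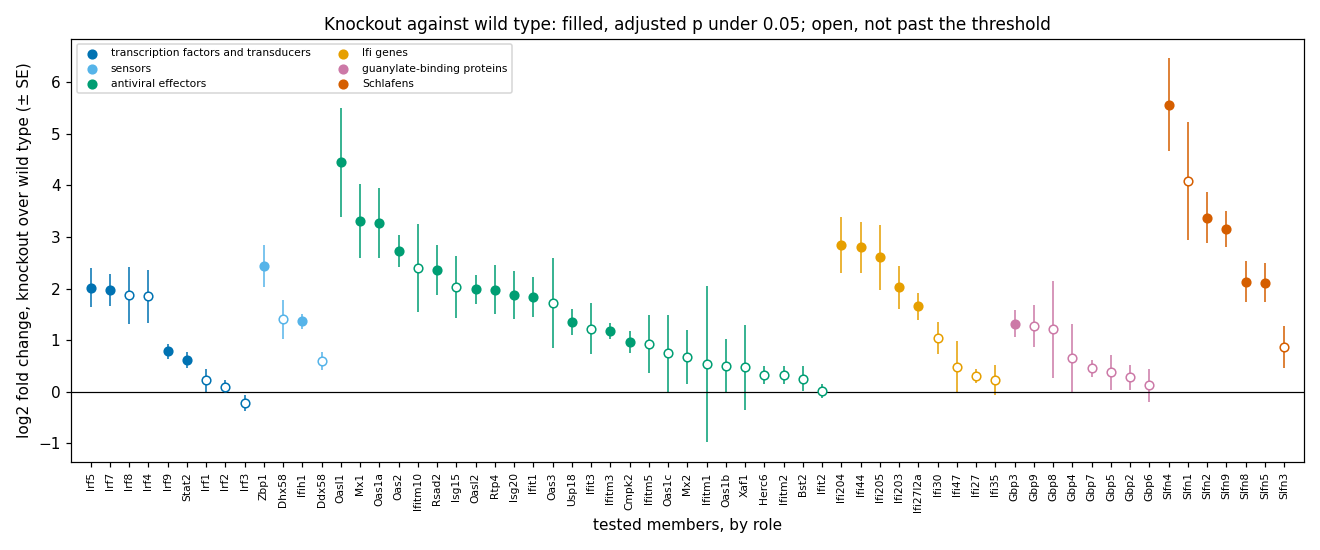
Log2 fold change of knockout over wild type for 63 tested members, with limma's SE as bars, ordered by role and then by size. Filled points are the 29 of them with an adjusted p under 0.05, and open points are the other 34. The Schlafens reach the highest values, and 1 member shown, Irf3, lies below 0.

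The factors that carry the signal differed among themselves. Stat2, a transducer of type I interferon, had 462 and 561 normalized counts in the knockout libraries against 350 and 314 in the wild-type libraries (log2 difference 0.62, SE 0.16, adjusted p = 0.04997), the call closest to the threshold. That call was lost with a pseudocount of 0.5 and after quantile normalization (adjusted p of 0.0507 and 0.0578). Irf9, the DNA-binding subunit of the same complex, had 497 and 597 against 303 and 331 (0.78, SE 0.15, adjusted p = 0.0251). Both genes thus rose by less than 1 on the log2 scale, with no overlap between the groups.

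Irf7, the factor that amplifies type I interferon production, rose more: 174 and 299 normalized counts against 56 and 59 (log2 difference 1.97, SE 0.31, adjusted p = 0.0150). Irf5, which acts downstream of Toll-like receptors in myeloid cells, was at 117 and 237 against 39 and 42 (2.01, SE 0.38, adjusted p = 0.0229). In both genes the lower knockout value was far above the wild-type values, and the 2 wild-type libraries differed little. An opposite-strand gene, Tnpo3, overlaps 14.1% of the exon length of Irf5.

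Irf4 and Irf8, factors of lymphoid and myeloid cells, had groups that did not overlap but missed the threshold. Irf4 was at 245 and 158 against 32 and 90 (log2 difference 1.85, SE 0.51, adjusted p = 0.0599), and Irf8 at 83 and 139 against 17 and 48 (1.87, SE 0.55, adjusted p = 0.0707). In each gene the wild-type libraries differed from each other by more than 2-fold. Irf4 passed after rescaling to the same total (adjusted p = 0.0434). The remaining factors showed smaller differences. Irf3, activated by phosphorylation after nucleic acid sensing, was at 288 and 337 against 347 and 382 (log2 difference -0.22, SE 0.16, adjusted p = 0.380). Irf2 was at 582 and 677 against 580 and 593 (0.10, SE 0.13), and Irf1 at 201 and 280 against 190 and 218 (0.22, SE 0.22). Of the 11 factors, 5 rose, 0 fell and 6 did not pass, beside 9.58% that rose and 6.7% that fell among all tested genes.

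All 4 cytosolic sensors had higher values in both knockout libraries than in both wild-type libraries, and 2 passed. Among all tested genes, 30.7% had both knockout values above and 9.58% passed as higher. Ifih1, which encodes MDA5, a sensor of long double-stranded RNA, had 434 and 483 normalized counts in the knockout libraries against 181 and 174 in the wild-type libraries (log2 difference 1.36, SE 0.15, adjusted p = 0.00898). Zbp1, a sensor of left-handed nucleic acid that can start necroptosis, had 97 and 166 against 28 and 18 (2.45, SE 0.41, adjusted p = 0.0173). Within each group the values of Ifih1 lay close together. Ddx58, which encodes RIG-I, was at 736 and 999 against 580 and 554 (0.60, SE 0.17, adjusted p = 0.0657). Dhx58, which encodes LGP2, was at 86 and 76 against 23 and 39 (1.40, SE 0.37, adjusted p = 0.0550), and it passed after rescaling to the same total (adjusted p = 0.0419).

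**Figure D2:**
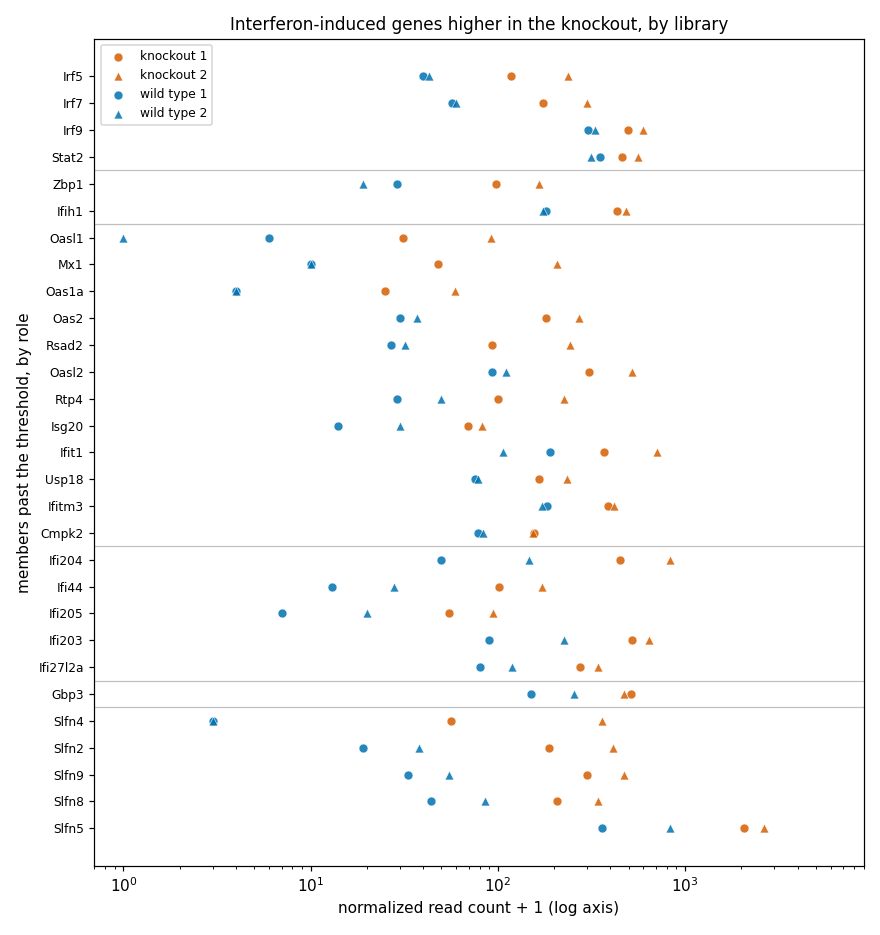
Normalized read counts plus 1 on a log axis for 29 members that passed the threshold, 1 row per gene, with 2 knockout libraries in orange and 2 wild-type libraries in blue. Circles are replicate 1 and triangles replicate 2. In every row both orange points lie to the right of both blue points, which the choice of rows by the test all but requires. In 27 of 29 rows knockout 2 is above knockout 1.

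Antiviral effectors made up the largest role, with 12 of 26 tested members higher and 0 lower and a median log2 fold change of 1.29. Among all tested genes 9.58% were higher and 6.7% lower. The oligoadenylate synthetases make the messenger that activates RNase L, which cuts viral and cellular RNA. Oas2 rose from 29 and 36 normalized counts in the wild type to 179 and 271 in the knockout (log2 difference 2.73, SE 0.31, adjusted p = 0.00898). Oasl2, a synthetase-like member, had 307 and 520 against 92 and 109 (1.99, SE 0.28, adjusted p = 0.0127). Oas1a had 24 and 58 against 3 and 3 (3.26, SE 0.68, adjusted p = 0.0286). These 3 were well separated, although Oas1a rests on very few wild-type reads. Oasl1, which restrains Irf7 translation, was at 30 and 91 against 5 and 0, and its call was lost with a pseudocount of 0.5 (adjusted p = 0.0525).

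The rest of the Oas family was low or did not pass. Oas3 was at 10 and 52 against 5 and 8, Oas1b at 30 and 19 against 21 and 13, and Oas1c at 23 and 8 against 6 and 10. Oas1g (highest value 13) and Oas1h (highest value 2) were below the filter, and Oas1d, Oas1e and Oas1f were listed at 0 in all libraries. Of the 50-base stretches in Oas1a transcripts, 57.6% also occur in Oas1g, the gene with the identical promoter stretch printed above, so the counts of these copies are uncertain. Of the family's members, 10 lie in 1 cluster on chromosome 5, from 120730333 to 120921652 (GRCm38, GENCODE M21), which means that they are neighbours and not independent observations.

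Other members of the effector role rose as well. Ifitm3, a membrane protein that blocks fusion of entering viruses, had 387 and 416 normalized counts in the knockout libraries against 182 and 171 in the wild-type libraries (log2 difference 1.18, SE 0.15, adjusted p = 0.0109). Usp18, the protease that removes ISG15 from proteins and dampens signalling at the type I receptor, had 165 and 233 against 75 and 77 (1.36, SE 0.25, adjusted p = 0.0214). Rsad2, which encodes viperin, had 92 and 242 against 26 and 31 (2.35, SE 0.49, adjusted p = 0.0285). Ifitm3 had close values within each group. The wild-type values of Usp18 were close, but its knockout libraries differed by 1.41-fold, and those of Rsad2 by more than 2-fold.

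Cmpk2, a nucleotide kinase gene beside Rsad2 on chromosome 12, was even within each group, at 156 and 154 against 77 and 82 (log2 difference 0.96, SE 0.21, adjusted p = 0.0352). Ifit1, which binds viral RNA ends, had 370 and 704 against 189 and 106 (1.84, SE 0.39, adjusted p = 0.0301). Mx1, a dynamin-like GTPase against influenza viruses, had 47 and 206 against 9 and 9 (3.32, SE 0.72, adjusted p = 0.0316). Rtp4, a chaperone that also restrains the interferon response, had 99 and 225 against 28 and 49 (1.98, SE 0.48), and Isg20, an exonuclease gene, had 68 and 81 against 13 and 29 (1.88, SE 0.47). The calls of Isg20 and Cmpk2 were lost after quantile normalization, with adjusted p of 0.0516 and 0.0595.

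Several widely used interferon response genes did not pass. Isg15, the ubiquitin-like modifier, was low, at 23 and 48 normalized counts against 9 and 6 (log2 difference 2.04, SE 0.60, adjusted p = 0.0703). Ifit3 was at 96 and 184 against 86 and 37 (1.22, SE 0.50, adjusted p = 0.154), and 51.2% of its 50-base stretches also occur in its copy Ifit3b. Ifit2, neighbour of both on chromosome 19, was at 605 and 728 against 641 and 674 (0.01, SE 0.14, adjusted p = 0.959). The 3 Ifit genes of 1 cluster thus had values from near 0 to 1.84, and Ifit1 was the one that passed. Ifitm2 was at 496 and 555 against 372 and 472 (0.32, SE 0.17), but 48.5% of its stretches occur in other annotated transcripts.

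The other effectors did not pass either. Xaf1, a promoter of apoptosis, had 125 and 709 normalized counts in the knockout libraries against 327 and 141 in the wild-type libraries (log2 difference 0.47, SE 0.82), with both the lowest and the highest value in the knockout. Herc6, which attaches ISG15 in mice, was at 344 and 398 against 330 and 263 (0.33, SE 0.18, adjusted p = 0.263). Bst2, which encodes the virus-tethering protein tetherin, was at 98 and 120 against 93 and 89, and Mx2 at 30 and 72 against 36 and 23. The groups overlapped in Xaf1 and Mx2 but not in Herc6 and Bst2. Among low genes, Ifitm10 was at 19 and 45 against 2 and 10, Ifitm5 at 16 and 18 against 9 and 8, and Ifitm1 at 1 and 46 against 8 and 4. Ifitm6 (highest value 7) and Ifitm7 (highest value 3) were below the filter.

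Of the 9 tested Ifi genes, 5 rose and 4 did not pass, with a median log2 fold change of 1.66. Among all tested genes 9.58% rose. The Ifi200 genes encode nuclear and cytosolic proteins that bind DNA and assemble inflammatory complexes. Ifi204 had 451 and 832 normalized counts in the knockout libraries against 49 and 145 in the wild-type libraries (log2 difference 2.84, SE 0.54, adjusted p = 0.0230). Ifi203 had 522 and 640 against 89 and 225 (2.02, SE 0.42, adjusted p = 0.0287), and Ifi205 had 54 and 93 against 6 and 19 (2.60, SE 0.63, adjusted p = 0.0422). All 3 tested genes of this cluster on chromosome 1 (173747293 to 174031810) rose, and in all 3 wild-type replicate 2 exceeded replicate 1 by more than 2-fold. They share sequence with neighbouring copies: 20% of the stretches of Ifi204, 18.6% of Ifi205 and 12.2% of Ifi203 occur in other annotated transcripts. Ifi202b, the fourth gene of the cluster in the table, had 23 and 3 against 6 and 7 and was not tested.

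Ifi27l2a, a small mitochondrial and nuclear membrane protein gene, had 274 and 343 normalized counts against 79 and 118 (log2 difference 1.66, SE 0.26, adjusted p = 0.0150). Its neighbour Ifi27 on chromosome 12 was at 613 and 525 against 460 and 460 (0.30, SE 0.14, adjusted p = 0.190). The groups did not overlap in either gene, and the first of the pair passed. Ifi44 had 101 and 171 against 12 and 27 (2.80, SE 0.49, adjusted p = 0.0193), whereas its paralog Ifi44l was listed at 0 throughout. Ifi30, a lysosomal thiol reductase gene of antigen-presenting cells, was at 297 and 568 against 195 and 205 (1.04, SE 0.31, adjusted p = 0.0718). Ifi47, an interferon-gamma-induced GTPase gene, was at 27 and 62 against 28 and 30, and Ifi35 at 177 and 115 against 138 and 108, both with overlapping groups. Ifi27l2b (highest value 12) was below the filter.

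Guanylate-binding proteins, GTPases that type II interferon induces strongly and that coat microbial vacuoles, gave the fewest calls. Only 1 of 8 tested Gbp genes passed, 12.5%, which is near the 9.58% of all genes. Gbp3 had 512 and 471 normalized counts in the knockout libraries against 150 and 256 in the wild-type libraries (log2 difference 1.32, SE 0.27, adjusted p = 0.0263). Gbp9 was at 277 and 272 against 73 and 176 (1.27, SE 0.40, adjusted p = 0.0865), and Gbp7 at 542 and 596 against 363 and 474 (0.45, SE 0.17, adjusted p = 0.128). In these 3 of the 8 tested genes, 37.5%, both knockout values lay above both wild-type values, which is near the 30.7% of all tested genes. Gbp2 was at 571 and 779 against 446 and 679 (0.28, SE 0.25, adjusted p = 0.490), and here the groups overlapped.

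The Gbp genes had a wide spread in the wild type. Wild-type replicate 2 exceeded replicate 1 in 8 of 8 tested Gbp genes, with a median ratio of 1.61, and Gbp4 was at 51 and 224 in the wild type beside 143 and 200 in the knockout. In the same library all 8 endothelial, 8 fibroblast and 6 adipocyte markers and 9 of 10 macrophage markers were also the higher of the pair, as were the 3 tested Ifi200 genes, and the part of those cells in these values was not tested. Gbp5 was at 103 and 192 against 99 and 118, Gbp6 at 79 and 58 against 53 and 73, and Gbp8 at 9 and 31 against 3 and 14. In these 4 genes the groups overlapped, and their log2 fold changes were 0.65, 0.38, 0.12 and 1.21. Every 50-base stretch of Gbp6 also occurs in another annotated gene, so its count is uncertain. Gbp10 (highest value 11) and 1 row of Gbp11 (highest value 5) were below the filter, and the other row of Gbp11 was listed at 0.

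The Schlafens had the highest median fold change of the 6 roles. Of 7 tested members, 5 rose and 2 did not pass, and the median log2 fold change was 3.15. In 7 of 7 both knockout values lay above both wild-type values, but the filter partly sets this count. Slfn1 and Slfn4 passed it only through their knockout values. Slfn14, with 0 and 0 normalized counts against 3 and 3, was below it and is not among the 7. Among all tested genes 9.58% rose, and 30.7% had both knockout values above. The summed normalized count of the 8 Schlafen genes was 2882 and 4516 in the knockout libraries against 486 and 1032 in the wild-type libraries. All 8 lie in 1 cluster on chromosome 11, from 82951349 to 83286726 (GRCm38), in the order Slfn5, Slfn9, Slfn8, Slfn2, Slfn1, Slfn4, Slfn3 and Slfn14.

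Slfn5, a long Schlafen found in the nucleus, had 2079 and 2656 normalized counts against 358 and 828 (log2 difference 2.11, SE 0.38, adjusted p = 0.0203). It made up 72.1% and 58.8% of the family's summed count in the knockout, compared with 73.7% and 80.2% in the wild type. Per kilobase of exon, Slfn5 had a mean level of 374 normalized counts in the knockout, followed by 180 for Slfn2, 67.3 for Slfn8 and 64.8 for Slfn9. In the wild type the same scale gave 93.7 for Slfn5, 16.5 for Slfn2, 15.5 for Slfn8 and 7.21 for Slfn9. Slfn5 thus had the highest level per length of the family in both groups.

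Slfn9 and Slfn8 are long Schlafens with a helicase-like domain, and their printed promoter stretches are the same in 35 of 50 bases, counted position by position. Slfn9 had 299 and 474 normalized counts against 32 and 54 (log2 difference 3.15, SE 0.35, adjusted p = 0.00898), and Slfn8 had 207 and 344 against 43 and 84 (2.13, SE 0.40, adjusted p = 0.0225). Slfn2, a short Schlafen needed for the quiescence of T cells and monocytes, had 187 and 411 against 18 and 37 (3.37, SE 0.50, adjusted p = 0.0137). Each of these had groups several-fold apart.

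Slfn4, an intermediate Schlafen of myeloid cells, and Slfn1, a short one that restrains T cell growth, had very low values in the wild type. Slfn4 had 55 and 360 normalized counts in the knockout libraries against 2 and 2 in the wild-type libraries (log2 difference 5.57, SE 0.90, adjusted p = 0.0160). Slfn1 had 19 and 216 against 4 and 2 (4.09, SE 1.14, adjusted p = 0.0613). Both had a much higher value in knockout replicate 2 than in replicate 1, by 6.55-fold in Slfn4. In that library the summed neutrophil markers were also higher, at 361 normalized counts against 43, and their part in these values was not tested. Ly6g, Mpo and Elane, 3 of the 6 neutrophil markers, were listed at 0 in all libraries. Without knockout replicate 2 the log2 fold change of Slfn4 was 4.22 and that of Slfn1 2.37. Slfn3 was at 36 and 55 against 26 and 22 (0.87, SE 0.41, adjusted p = 0.202), and Slfn14 had 0 and 0 against 3 and 3, below the filter. Between 4.27% (Slfn2) and 15.6% (Slfn3) of the 50-base stretches of Slfn2, Slfn3, Slfn4, Slfn8 and Slfn9 occur in another annotated transcript.

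The 2 knockout libraries did not show the same level. Knockout replicate 2 exceeded replicate 1 in 55 of 65 tested members, with a median ratio of 1.41. Over all tested genes it was the higher in 7158 of 15058, with a median ratio of 0.99. Among the 30 members that rose, it was higher in 28 and at least 2 times as high in 8. The summed count of all members was 16759 and 23264 in the knockout libraries against 8989 and 10629 in the wild type. The groups did not overlap in this sum. In the wild type, replicate 2 exceeded replicate 1 in 42 of 65 members, with a median ratio of 1.10. Over all tested genes wild-type replicate 2 was the higher in 7902 of 15058, with a median ratio of 1.01. By role, replicate 2 was the higher in 8 of 8 Gbp genes and 10 of 11 factors, but in 12 of 26 antiviral effectors, with Ifit1, Ifit3 and Xaf1 among those higher in replicate 1.

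**Figure D3:**
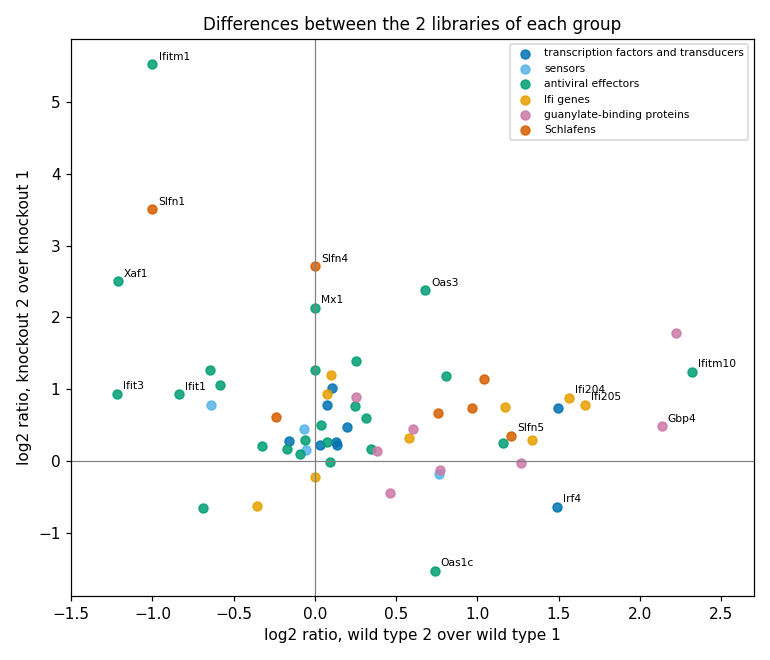
Log2 ratio of replicate 2 to replicate 1 in the knockout (vertical) and in the wild type (horizontal) for the tested members shown in the plot of log2 fold changes that have no value of 0, coloured by role. Most points lie above 0 on the vertical axis, Ifitm1, Slfn1, Slfn4 and Xaf1 are far up, and the Gbp genes all lie to the right of 0.

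Other genes of the pathway were read from lists of ligands, receptors with proximal signalling, nucleic acid sensing and further induced genes. Over the 4 lists, 31 of 74 tested genes rose and 1 fell. Among all tested genes 9.58% rose and 6.7% fell, and these shares also stand beside the counts of the single lists below. Of 10 interferon genes, 9 were listed at 0 in all libraries, Ifnb1, Ifng and Ifna4 among them, and Ifnk had 8 and 17 normalized counts against 7 and 6. Trex1, a gene that most cells express, was also listed at 0 in all libraries, so a listed 0 is given here as that and not as absence.

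Among 16 receptors and proximal signalling genes, 6 rose, 1 fell and 9 did not pass. The type I receptor gene Ifnar2 had 577 and 608 normalized counts in the knockout libraries against 255 and 321 in the wild-type libraries (log2 difference 1.05, SE 0.16, adjusted p = 0.0147). Its partner Ifnar1 was at 1135 and 1450 against 867 and 970 (0.48, SE 0.15, adjusted p = 0.0834). The type II receptor gene Ifngr1 had 1168 and 1224 against 623 and 764 (0.79, SE 0.14, adjusted p = 0.0186), and Ifngr2 was at 1152 and 1051 against 1066 and 1125 (0.01, SE 0.11). In each receptor 1 chain passed and the other did not. Socs3, a feedback inhibitor of cytokine signalling, rose with a log2 fold change of 3.17, the phosphatase gene Ptpn6 with 3.20, Stat3 with 0.82 and Jak1 with 0.53. The gene that fell was Pias1, an inhibitor of cytokine signalling, at 1054 and 881 against 1461 and 1315, and that call was lost after rescaling to the same total.

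Of 20 tested genes of nucleic acid sensing, 11 rose and 0 fell. The endosomal RNA receptor genes Tlr7 (462 and 645 normalized counts against 46 and 86) and Tlr8 (328 and 524 against 17 and 42) rose with log2 fold changes of 3.10 and 3.90. Aim2, a DNA sensor of the inflammasome, had 58 and 93 against 3 and 4 (4.06), and Trim25, the ligase that activates RIG-I, had 575 and 753 against 228 and 242 (1.48). These 4 had the smallest p-values of the list. Tlr7 and Tlr8 are receptors of myeloid cells.

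Among 38 tested genes induced by interferon but outside the rule for members, 14 rose, 0 fell and 24 did not pass, with a median log2 fold change of 0.76. Lgals3bp had 1141 and 1036 normalized counts against 188 and 341 (2.10), Ly6e 1165 and 1376 against 291 and 472 (1.77), Epsti1 110 and 220 against 13 and 19 (3.23), and Apobec3 450 and 545 against 172 and 219 (1.35). These 4 had the smallest p-values of the list, so their groups not overlapping follows from how they were picked.

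Markers of other cell types moved in the same libraries. The macrophage list had 1 gene that fell, Mertk, at 1794 and 1607 normalized counts against 3889 and 3274, and with it the 10 markers summed to 13917 and 17032 against 5032 and 6482. The myeloid integrin gene Itgam had 1017 and 1917 normalized counts against 52 and 174, and Fcgr1 had 67 and 165 against 3 and 12. Of 8 endothelial markers 5 rose, with summed counts of 11161 and 9373 against 3279 and 5626. Of 8 fibroblast markers 2 rose (67616 and 58180 against 18457 and 36149), and of 6 adipocyte markers 4 rose (10787 and 10275 against 1280 and 3819). Of 10 smooth muscle markers 8 fell and 0 rose, with sums of 191167 and 145978 against 476970 and 452152.

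Lymphoid and granulocyte markers were sparse. The 11 markers of T, NK and innate lymphoid cells summed to 74 and 117 normalized counts in the knockout libraries against 15 and 25 in the wild-type libraries, with 9 of them below the filter. The 5 B cell markers summed to 17 and 14 against 9 and 8, and Pax5 was listed at 0. Among neutrophil markers, S100a9 had 15 and 189 against 0 and 0 and Cxcr2 had 28 and 124 against 0 and 1, while Ly6g, Mpo and Elane were listed at 0 in all libraries. The 6 dendritic cell markers gave 0 calls, with 2 of them at an unadjusted p under 0.05. Knockout replicate 2, the library with more of most members, was also the higher of the pair in 9 of 10 macrophage markers and 3 of 3 tested neutrophil markers. It was the higher in 4 of 8 endothelial and 3 of 8 fibroblast markers. Within the wild type, replicate 2 was the higher in 9 of 10 macrophage, 8 of 8 endothelial, 8 of 8 fibroblast and 6 of 6 adipocyte markers, with median ratios over the 4 lists from 2.09 to 3.04.

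**Figure D4:**
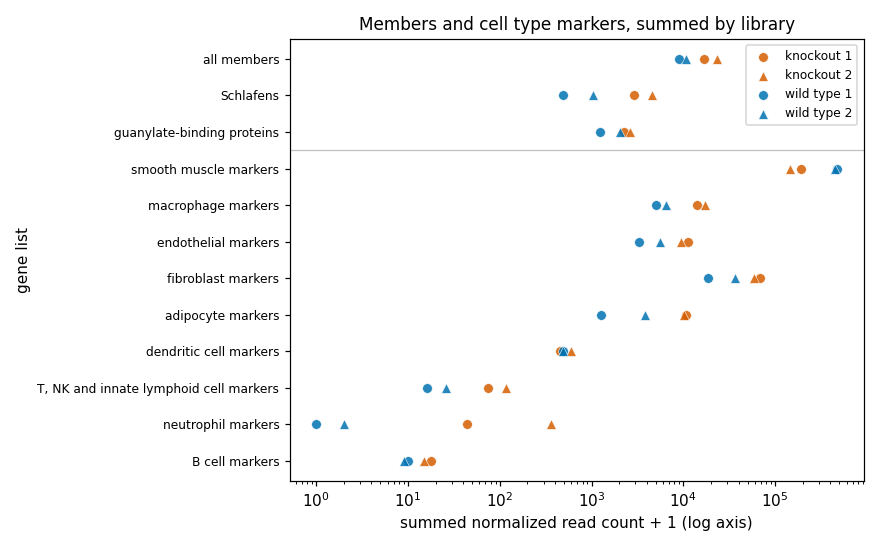
Summed normalized read counts plus 1 on a log axis for all members, the Schlafens, the guanylate-binding proteins and 9 lists of cell type markers, 1 point per library (orange, knockout; blue, wild type). The knockout points lie above the wild-type points for every list shown except smooth muscle, where they lie below, and dendritic cells, where they overlap.

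The promoters were then compared with the expression values. RefSeq promoters, from 250 bases before to 50 after the start, were found for 56 of the 78 member symbols and for 27025 genes in all. The ISRE core, searched on both strands, was present in 24 of the 56 members, or 42.9%, and in 3.99% of all genes. Among members that rose, 12 of 22 with a promoter held it (54.5%), and among tested members that did not pass, 11 of 26 held it (42.3%). Of 1001 other genes that rose in the knockout and have a promoter in the table, 6.29% held it. The members were named for their induction by interferon, so a high share in them describes the list and is no finding about these cells.

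Of 36 matches, 26 began within 150 bases before the start. Overlapping matches count singly here, and the same Slfn8 site counts once for each of its 2 starts. The stretch searched runs only from 250 bases before to 50 after, and the share for other promoters was not counted, so no closeness to the start is claimed. In Slfn9 the match began 45 bases before the start, in Gbp3 45 and 39, and in Oas1a 20 and 14. In Slfn8 it began 48 or 136 bases before, depending on which annotated start is used. Gbp3 and Ifi203 each have a further start without a match in its stretch. Isg15, with 3 matches from 78 to 66 bases before the start, and Bst2, with 2, did not pass, while Slfn4, Slfn2, Irf7, Ifi44 and Oasl2 passed without these letters in this stretch. Members with and without the letters were thus found on both sides of the threshold. The letters of the GAS, TTCNNNGAA, which read the same on both strands, were present in 13 of 56 members (23.2%) and 9.55% of all genes, and in 3 of the 22 members that rose.

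**Figure D5:**
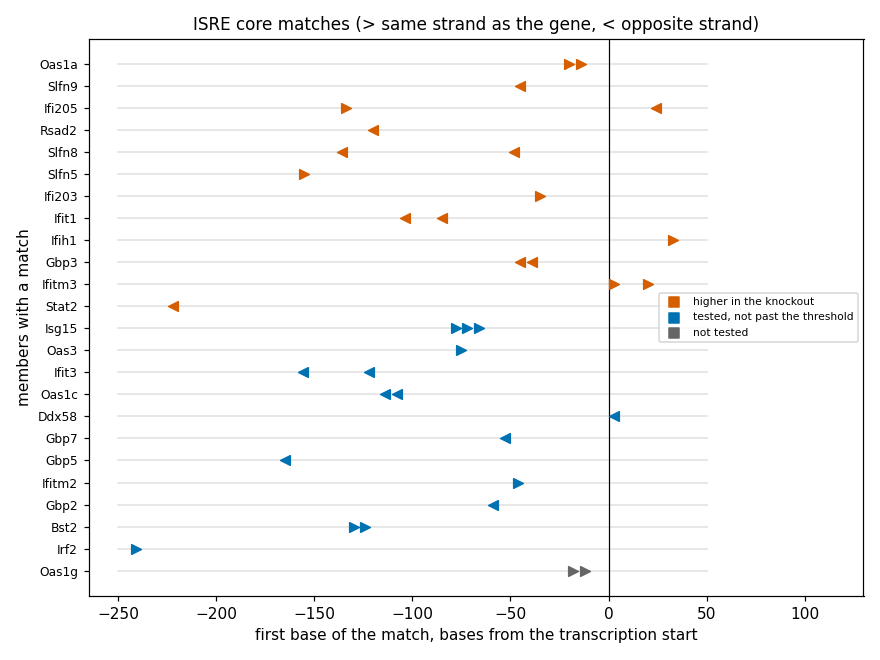
First base of each ISRE core match relative to the transcription start for the 24 members with a match, 1 line per gene from 250 bases before to 50 after the start. Orange marks members higher in the knockout, blue tested members that did not pass and grey a member that was not tested, and arrowheads give the strand of the match. Matches of both colours lie mostly within 150 bases before the start.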

How the data were processed

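The authors deposited 1 table of normalized read counts rounded to whole numbers (unit taken as a score, since evenly spaced gaps between the whole numbers of the knockout libraries show that they are not raw counts). Per the submitters' processing notes, the tools were STAR 2.5.2b, DESeq2 1.14.1, featureCounts 1.5.1 from Subread, and FastQC, with build mm10/GRCm38 and no roles. Annotation release and strand setting: not given in the sources used here. Per the labels' protocols, ribosomal RNA was depleted and a stranded total RNA kit was used. The spacing of values gave size factors of 0.887 and 0.89 (knockout) and 1.1 and 1.16 (wild type), hence the estimated reads.

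Values were transformed to log2(value + 1), genes with a mean of at least 10 were kept, and knockout was compared with wild type in limma 3.58.1 (R 4.3.3) with eBayes and an intensity trend over all 15058 tested genes. The two-sided p-values were adjusted over all of them by the Benjamini-Hochberg method, with a threshold of 0.05. Fold changes on this scale understate the change of low genes. Positions and exon lengths come from GENCODE M21 (GRCm38), in which 77 of 79 members were found. The members, pathway lists, marker lists and the rule for named genes were chosen with earlier results of these data known. Per role, that rule takes up to 6 members past the threshold by smallest p and up to 3 that missed it by highest mean, lets any other tested member be named, and takes 4 genes per pathway list by smallest p plus the interferon receptors. Single values of 2 members are not reported here, and the plots leave them out, while all counts and sums include them.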

Additional observations from a re-analysis of the deposited data

How the results depend on the processing

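At a pseudocount of 0.5 or 4, a minimum mean of 50, the same total or quantile normalization, limma called 26 to 32 members higher and 0 lower. Without the filter and without the intensity trend it called 0 members, 0 pathway genes and 0 of all genes in either direction, with smallest adjusted p over all genes of 0.0710 and 0.0643. When 1 library was left out, it called 0 to 8 members higher, 0 to 10 pathway genes higher and 0 lower, and 0 to 587 of all genes higher and 0 to 153 lower; the counts above 0 came from leaving out wild-type replicate 2, and the lone library of a group was assumed to vary like the others. After rescaling to the same total 0 pathway genes were lower.

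The numbers 1 and 2 are shared by the groups, but the labels do not say that they pair the samples (correlation of same-numbered deviations 0.118 over 15058 genes). With the replicate block, limma called 35 members higher and 0 lower, 35 pathway genes higher and 2 lower, and 1823 of all genes higher and 1213 lower. Of the 30 members called without the block, 29 were called with it, 6 others were gained, and Stat2 was lost (adjusted p of 0.0513).

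Of 88 tested genes followed one by one through the alternatives, 12 changed sign in some alternative, and none of these had passed the threshold. Genes past the threshold were picked for groups far apart, so a change of sign was unlikely for them from the outset. With 1 library left out, the log2 fold change ran from -0.011 to 0.21 in Irf2, -0.018 to 0.46 in Irf1, -0.12 to 0.15 in Ifit2, -0.069 to 0.82 in Gbp5, -0.099 to 1.07 in Ifi47, -0.78 to 1.72 in Xaf1 and -1.75 to 2.81 in Ifitm1, with each minimum without knockout replicate 2. It ran from -0.086 to 0.53 in Ifi35 and -0.059 to 0.073 in Ifngr2, with the minima without knockout replicate 1. It ran from -0.026 to 0.58 in Gbp2, -0.40 to 1.71 in Gbp4 and -0.11 to 0.35 in Gbp6, with the minima without wild-type replicate 1. After quantile normalization Ifit2 was at -0.022 and Gbp6 at -0.13. The cause was not tested. There are 2 libraries a group, and Slfn4, Mx1, Oas1a and Oasl1 had wild-type values under 10.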
